A study of Rattus norvegicus with 6 samples.

Results

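The clock output transcription factors are genes that the circadian clock switches on and off each day and that pass its rhythm on to other genes. They were represented here by 8 genes, Dbp, Tef, Hlf, Nfil3, Ciart, Bhlhe40, Bhlhe41 and Rora, of the 17833 genes in the expression table of pulmonary veins (PVs). The genes were found by symbol, and they had been chosen from measured values of the BPVB against sham contrast. Their difference between these groups is therefore given as a description, with no test. All 8 passed the filter on low values, a mean of at least 0.1 FPKM over the 6 libraries. FPKM is the fragment count scaled to gene length in kilobases and to the library's total.

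The PVs came from wild-type SD (Sprague-Dawley) rats that underwent bilateral pulmonary vein banding (BPVB) or a sham operation at postnatal day 1 and were sampled at postnatal day 21, with 3 libraries per group, from 3 rats per group by the study's methods. Both groups had their chest opened under ice anaesthesia, and the constriction of the veins was the step that the sham rats did not receive. The tissue was PV of the right upper lobe, sequenced as bulk RNA. The rats lived in equal periods of light and dark. The clock time at which each rat was sampled is not given in the sources used here, so the libraries could not be set against time of day. A difference in that time between the groups and an effect of banding cannot be told apart here.

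In the molecular clock, the CLOCK and ARNTL (BMAL1) proteins bind the E-box, the sequence CACGTG, and switch on their targets, among them the period and cryptochrome genes, whose proteins then repress CLOCK and ARNTL. Dbp, Tef and Hlf encode the PAR bZIP activators, which bind a second element, the D-box, and NFIL3 (E4BP4) represses through that same element. CIART (CHRONO) and the basic helix-loop-helix (bHLH) proteins BHLHE40 (DEC1) and BHLHE41 (DEC2) repress E-box transcription, and RORA activates Arntl and other genes through the RORE, at which NR1D1 and NR1D2 (REV-ERBs) repress.

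Because the E-box is one of the elements through which the clock drives its output genes, the promoter windows of the members that held one are shown. The windows run from 250 bases before to 50 bases after 1 annotated start per gene in RefSeq, build GRCr8, and were given for 7 of the 8 members, Hlf being the exception. That start is the outer end of the gene record for Dbp, Nfil3 and Bhlhe40, and lies inside the record by 60 bp for Bhlhe41, 1532 bp for Ciart, 9647 bp for Tef and 633545 bp for Rora. They are written 5′ to 3′ on the gene's strand, with each E-box in capitals. They lie at chr2:186112197-186112496 on the minus strand for Ciart, chr7:115206577-115206876 on the plus strand for Tef, chr4:143174200-143174499 on the plus strand for Bhlhe40 and chr4:180569306-180569605 on the minus strand for Bhlhe41.
Ciart: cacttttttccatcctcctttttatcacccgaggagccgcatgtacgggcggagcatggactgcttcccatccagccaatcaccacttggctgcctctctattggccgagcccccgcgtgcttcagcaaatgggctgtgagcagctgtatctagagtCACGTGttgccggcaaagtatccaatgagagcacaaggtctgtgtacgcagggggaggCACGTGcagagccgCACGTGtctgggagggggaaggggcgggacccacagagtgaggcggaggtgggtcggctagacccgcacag
Tef: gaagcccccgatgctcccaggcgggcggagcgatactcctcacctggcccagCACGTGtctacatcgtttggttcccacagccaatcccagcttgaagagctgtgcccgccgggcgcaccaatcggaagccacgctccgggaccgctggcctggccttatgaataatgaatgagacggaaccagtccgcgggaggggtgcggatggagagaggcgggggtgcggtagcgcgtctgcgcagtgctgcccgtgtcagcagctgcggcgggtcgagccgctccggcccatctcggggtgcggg
Bhlhe40: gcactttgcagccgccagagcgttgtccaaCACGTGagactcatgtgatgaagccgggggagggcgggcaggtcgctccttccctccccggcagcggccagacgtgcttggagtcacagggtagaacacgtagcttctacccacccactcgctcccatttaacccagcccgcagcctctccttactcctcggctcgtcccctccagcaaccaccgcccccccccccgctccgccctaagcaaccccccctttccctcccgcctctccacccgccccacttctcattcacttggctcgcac
Bhlhe41: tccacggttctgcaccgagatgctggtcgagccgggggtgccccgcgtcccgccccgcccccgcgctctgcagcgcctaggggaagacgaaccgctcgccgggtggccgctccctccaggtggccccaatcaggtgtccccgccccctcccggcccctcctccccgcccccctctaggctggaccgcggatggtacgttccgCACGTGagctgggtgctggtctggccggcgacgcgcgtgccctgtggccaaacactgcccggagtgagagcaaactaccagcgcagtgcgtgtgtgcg

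The Ciart window held 3 E-boxes, whose first bases lay at positions -93, -35 and -21 from that start. The windows of Tef, Bhlhe40 and Bhlhe41 held 1 each, at -198, -220 and -48. No match to CACGTG was found in the windows of Dbp, Nfil3 and Rora. Of 27457 promoter windows of the same length, 6.65% held at least 1 E-box and 17 windows, or 0.0619%, held 3 or more. The D-box letters TTATGTAA or TTACGTAA, searched on both strands, were in none of the 7 windows and in 1.01% of all windows. The RORE core letters TAGGTCA or TGGGTCA, also on both strands, were in none of the 7 and in 6.51% of all. A match describes letters in a window of 300 bases around 1 start, and other starts were not searched.

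**Figure D1:**
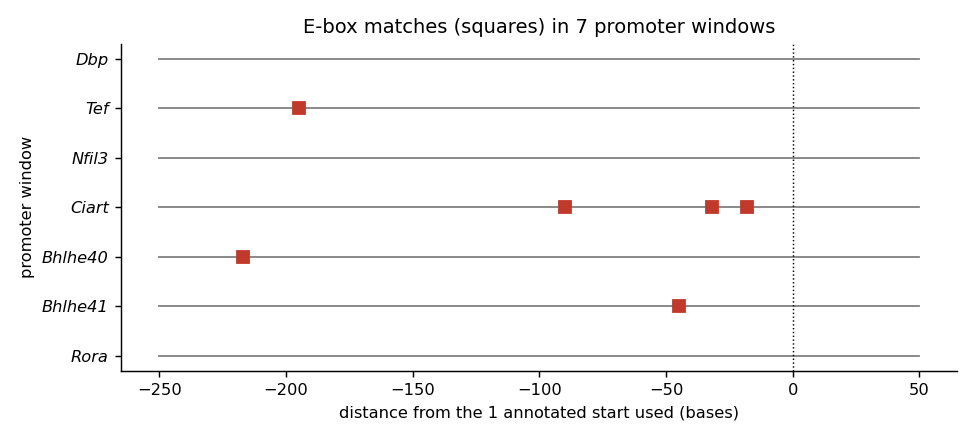
Matches to the E-box CACGTG (squares) in the promoter windows of 7 members, with the distance in bases from the annotated start used on the horizontal axis and 1 line per gene. The Ciart window carries 3 matches, Tef, Bhlhe40 and Bhlhe41 carry 1 each, and Dbp, Nfil3 and Rora carry no match.

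The libraries held 26078189 to 29725808 fragments in the BPVB group and 23439506 to 23821184 in the sham group, as recovered from the FPKM values. Of 15150 genes tested with limma on log2(FPKM + 0.5), 17.2% were higher and 14.3% lower in BPVB PVs at an adjusted p under 0.05. With an absolute log2 fold change over 1 as well, 2.24% were higher and 1.03% were lower. The groups did not overlap for 45.6% of genes, and the median log2 fold change over all genes was 0.02. The tissue label was met by its markers, with summed levels in BPVB and sham libraries of 1052 to 1066 and 1159 to 1165 FPKM for 7 endothelial genes, 4357 to 4399 and 4559 to 4627 FPKM for 6 smooth muscle genes, 6167 to 6221 and 5394 to 5438 FPKM for 6 fibroblast genes, and 14717 to 15143 and 19316 to 19687 FPKM for 8 atrial cardiomyocyte genes, which mark the myocardial sleeve of the vein.

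The PAR bZIP activators Dbp, Tef and Hlf were all lower in BPVB PVs, and Nfil3, the repressor of the same element, was higher. Ciart, Bhlhe40 and Bhlhe41 were lower, and Rora was the member whose groups lay closest. The median log2 fold change of the 8 members was -1.45. In bulk tissue, fewer cells of a type and less RNA per cell cannot be told apart.

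Dbp (gene 24309), which encodes the D-box activator with one of the widest daily swings in many tissues, measured 12.3, 11.7 and 12.1 FPKM in the BPVB libraries and 139, 142 and 140 FPKM in the sham libraries. The groups were far apart, and replicates within a group were nearly alike. The mean level was 12.0 ± 0.33 FPKM in BPVB and 140 ± 1.8 FPKM in sham PVs (SD, n = 3), 11.7-fold lower in BPVB. The log2 fold change on the log2(FPKM + 0.5) scale was -3.49 ± 0.038 (SE), which ranked 2 among the falls of the 15150 genes. It rested on 414 to 490 fragments per BPVB library and 4500 to 4541 per sham library, so counting error was small.

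The gene starts and ends of Dbp and its neighbours nearly touch in the RefSeq table, with 126 bp to Sphk2, a sphingosine kinase, and 604 bp to Car11, a carbonic anhydrase-related protein. Sphk2 measured 8.67, 8.23 and 8.33 FPKM in BPVB and 7.71, 8.19 and 7.52 FPKM in sham PVs. Its log2 fold change was 0.10 ± 0.068 (SE), with an adjusted p of 0.29 by limma. The highest sham library was just below the lowest BPVB library, and the difference did not pass the test. Car11 measured 8.56, 7.71 and 6.0 FPKM in BPVB and 11.4, 10.1 and 10.2 FPKM in sham PVs, without overlap. Its log2 fold change was -0.49 ± 0.12 (SE), with an adjusted p of 0.013 by limma, the same direction as Dbp and a smaller size.

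Tef (gene 29362), the PAR bZIP factor first described in the pituitary, measured 10.8, 11.5 and 11.4 FPKM in BPVB and 34.1, 32.8 and 33.3 FPKM in sham PVs. All BPVB libraries were below all sham libraries. The means were 11.2 ± 0.38 and 33.4 ± 0.66 FPKM (SD, n = 3), 2.97-fold lower in BPVB, with a log2 fold change of -1.53 ± 0.049 (SE). It had 1716 fragments or more in each library.

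Hlf (gene 690286), a PAR bZIP factor also known for its part in blood stem cells and in leukaemia fusions, measured 0.676, 0.698 and 0.623 FPKM in BPVB and 2.60, 2.79 and 2.95 FPKM in sham PVs. Its level was the lowest of the PAR bZIP genes in every library, and the groups did not overlap. The means were 0.666 ± 0.039 and 2.78 ± 0.17 FPKM (SD, n = 3), 4.17-fold lower in BPVB. The log2 fold change was -1.49 ± 0.11 (SE) with a pseudocount of 0.5, and it was -1.91 with a pseudocount of 0.1, -1.18 with 1, -1.71 with TPM and -2.06 with limma-voom on the recovered fragments. Each BPVB library held 115 to 118 fragments of Hlf.

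Nfil3 (gene 114519), which encodes a bZIP repressor that competes with the PAR factors and also acts in immune cell development, measured 9.34, 7.65 and 6.56 FPKM in BPVB and 2.98, 2.41 and 2.29 FPKM in sham PVs. The lowest BPVB library was above the highest sham library. The means were 7.85 ± 1.4 and 2.56 ± 0.37 FPKM (SD, n = 3), 3.07-fold higher in BPVB, with a log2 fold change of 1.44 ± 0.14 (SE). BPVB replicate 1 was the highest of the 6, and without any 1 library the log2 fold change lay between 1.32 and 1.56.

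**Figure D2:**
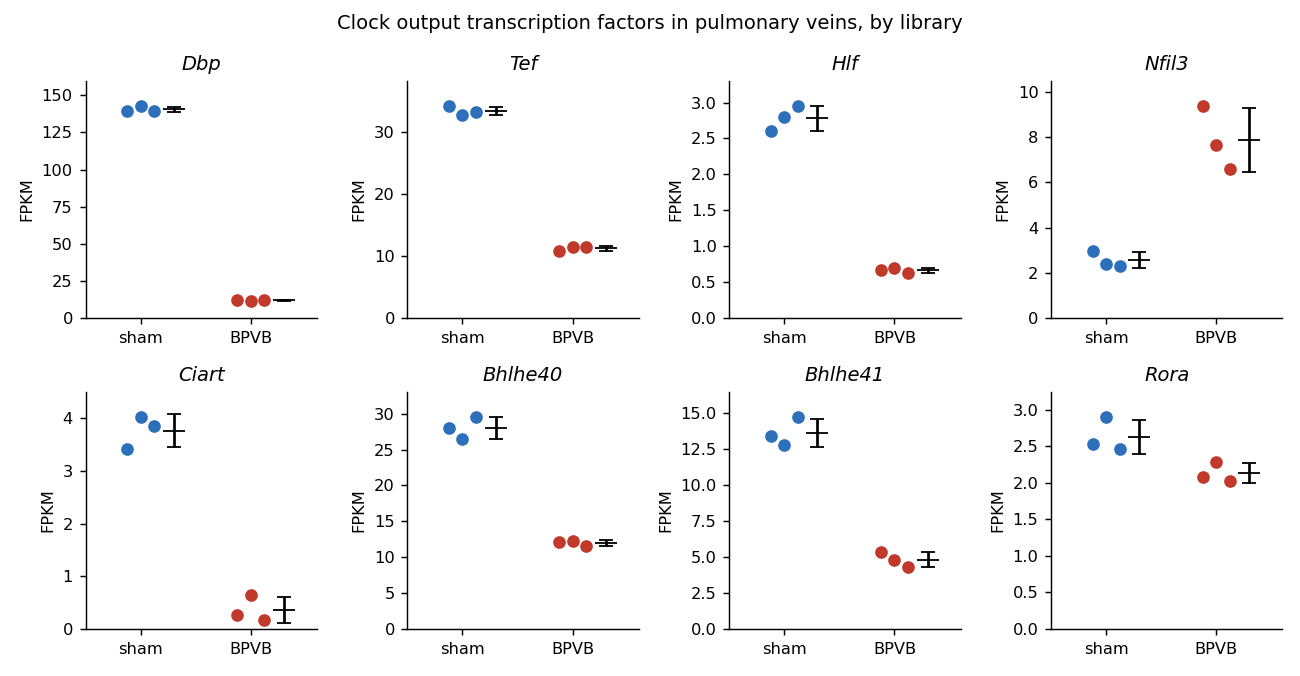
FPKM of each of the 8 clock output factors (1 panel each, vertical axes from 0) in the 3 sham (blue) and 3 BPVB (red) libraries, with the mean and SD in black. Nfil3 is higher in BPVB PVs, the other 7 are lower, and the groups lie closest for Rora, at 2.13 ± 0.14 against 2.63 ± 0.23 FPKM.

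Set together, the factors that bind the D-box differed in total and in make-up. The summed level of Dbp, Tef and Hlf was 23.8, 23.9 and 24.2 FPKM in BPVB and 176, 178 and 176 FPKM in sham PVs. The ratio of this sum to Nfil3 was 2.55, 3.12 and 3.68 in BPVB and 59.1, 73.8 and 76.8 in sham PVs. The RNA of the activators thus exceeded that of the repressor in all 6 libraries, by far more in the sham group. These ratios compare RNA levels per gene length and say nothing of protein.

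Dbp made up 79.5% ± 0.45 of the PAR bZIP sum in sham PVs and 50.3% ± 1.4 in BPVB PVs (SD, n = 3). The share of Tef was 18.9% ± 0.49 in sham and 47.0% ± 1.4 in BPVB PVs, and that of Hlf was 1.57% ± 0.098 and 2.78% ± 0.18. Dbp was 4.20 ± 0.13 times as abundant as Tef in sham PVs and 1.07 ± 0.063 times in BPVB PVs. The activator pool was thus mainly Dbp in the sham group and close to equal parts Dbp and Tef in the BPVB group.

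**Figure D3:**
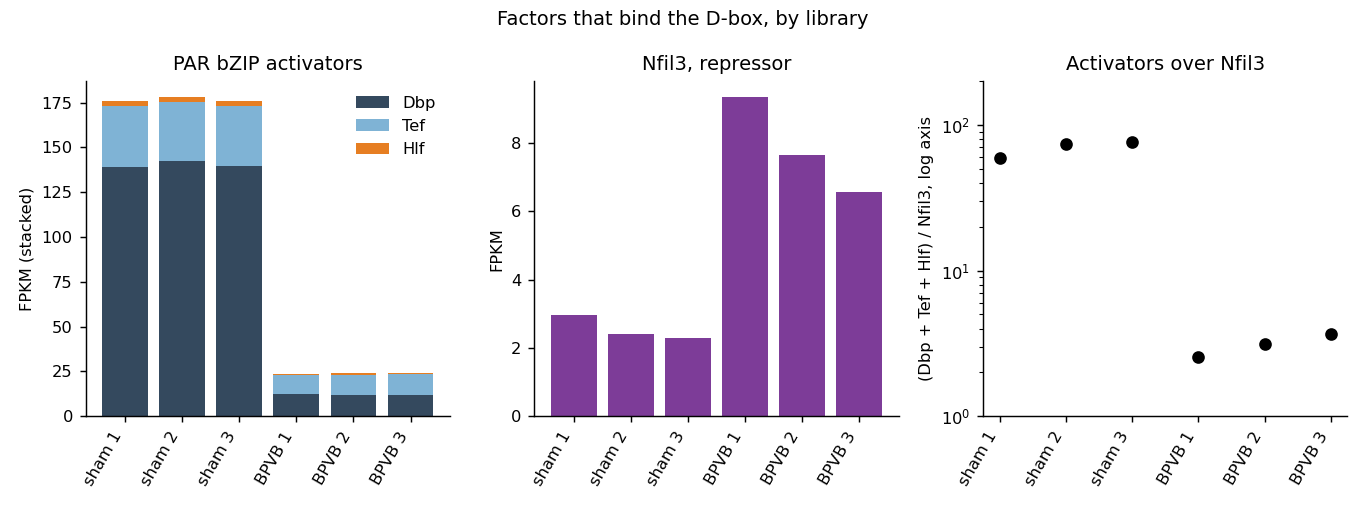
Stacked FPKM of the activators Dbp, Tef and Hlf (left), FPKM of the repressor Nfil3 (middle) and the ratio of the activators to Nfil3 on a log axis (right), 1 bar or point per library. The ratio lies between 59.1 and 76.8 in the sham libraries and between 2.55 and 3.68 in the BPVB libraries.

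Ciart (gene 365871), the repressor of CLOCK and ARNTL whose promoter window held 3 E-boxes, measured 0.256, 0.635 and 0.175 FPKM in BPVB and 3.42, 4.02 and 3.86 FPKM in sham PVs. The means were 0.355 ± 0.25 and 3.76 ± 0.31 FPKM (SD, n = 3), 10.6-fold lower in BPVB, with a log2 fold change of -2.35 ± 0.19 (SE). BPVB replicate 2 stood above the other BPVB libraries, and all were below every sham library. C2h1orf54, which lies 143 bp from Ciart in the RefSeq table, had a log2 fold change of -0.05 ± 0.074 (SE; adjusted p = 0.69, limma), with overlapping groups.

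The Ciart levels in BPVB PVs rested on 21, 51 and 16 fragments. Their exact 95% Poisson intervals were 0.158 to 0.391, 0.473 to 0.835 and 0.0999 to 0.284 FPKM, which cover counting error only. The interval of replicate 2 thus lay clear of the others. Without BPVB replicate 2 the mean was 0.215 FPKM, 17.5-fold below the sham mean, and the log2 fold change was -2.58. Since Ciart was low in BPVB PVs, its log2 fold change moved with the scale, from -1.83 with a pseudocount of 1 to -3.63 with limma-voom on the recovered fragments.

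Bhlhe40 (gene 79431), an E-box repressor that also responds to hypoxia and cytokines, measured 12.1, 12.3 and 11.6 FPKM in BPVB and 28.0, 26.4 and 29.5 FPKM in sham PVs. The groups did not overlap. The means were 12.0 ± 0.37 and 28.0 ± 1.5 FPKM (SD, n = 3), 2.33-fold lower in BPVB, with a log2 fold change of -1.19 ± 0.057 (SE), the smallest among the members with an absolute value over 1.

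Bhlhe41 (gene 117095), its close paralog, known from human short-sleep families, measured 5.31, 4.80 and 4.30 FPKM in BPVB and 13.3, 12.7 and 14.7 FPKM in sham PVs. It was below Bhlhe40 in all 6 libraries, and its groups did not overlap either. The means were 4.80 ± 0.50 and 13.6 ± 1.0 FPKM (SD, n = 3), 2.83-fold lower in BPVB, with a log2 fold change of -1.41 ± 0.091 (SE). The ratio of Bhlhe40 to Bhlhe41 was 2.51 ± 0.20 in BPVB and 2.06 ± 0.044 in sham PVs, so Bhlhe41 was the more reduced of the pair.

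Rora (gene 300807), the nuclear receptor that activates through the RORE, measured 2.08, 2.29 and 2.03 FPKM in BPVB and 2.53, 2.90 and 2.47 FPKM in sham PVs. The highest BPVB library was below the lowest sham library by a small margin. The means were 2.13 ± 0.14 and 2.63 ± 0.23 FPKM (SD, n = 3), 1.24-fold lower in BPVB, with a log2 fold change of -0.25 ± 0.11 (SE). Its log2 fold change lay between -0.34 and -0.19 over the alternatives. The groups did not overlap for 8 of 8 members, beside 45.6% of all genes, and nothing is read from this count, since the members were chosen on this contrast.

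The members' order by level changed between the groups. In sham PVs it ran Dbp, Tef, Bhlhe40, Bhlhe41 and Ciart, followed by Hlf, Rora and Nfil3, where the ranges of Hlf and Rora and those of Rora and Nfil3 overlapped. In BPVB PVs Dbp and Bhlhe40 overlapped at the top, followed by Tef, Nfil3, Bhlhe41 and Rora, with Hlf and Ciart overlapping at the bottom. Nfil3 was thus last of the 8 by mean level in sham PVs and above Bhlhe41 and Rora in BPVB PVs. The summed level of the 8 genes was 51.1 ± 2.1 FPKM in BPVB and 227 ± 1.4 FPKM in sham PVs (SD, n = 3).

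The members were also placed among the genes of their DNA-binding family, as the authors' annotation assigned them. That bZIP set holds no gene of the C/EBP factors, bZIP proteins described below, so the ranks leave them out. Of 44 bZIP genes, Dbp ranked 4 by level in sham PVs and 17 in BPVB PVs, Tef ranked 10 and 20, and Hlf ranked 31 and 38. Nfil3 moved the other way, from 32 to 27. By log2 fold change among the 41 bZIP genes tested, Dbp ranked 1, Tef 4 and Hlf 6 among the falls, with Fosb, Fos and Junb between them at -1.85, -1.72 and -1.52, and Nfil3 ranked 1 among the rises. For genes of low level these ranks depend on the pseudocount of 0.5. By ratio of means, Hlf fell 4.17-fold, against 3.96-fold for Fosb, 3.30-fold for Fos and 2.97-fold for Tef. Nrl and Fosl1, at 0.801 and 0.823 FPKM in BPVB PVs, rose 10.3- and 3.23-fold, against 3.07-fold for Nfil3. Of the 37 tested bZIP genes that are not members, 13 were called higher and 7 lower by limma, beside 17.2% and 14.3% of all genes, with a median log2 fold change of 0.16.

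Of 72 bHLH genes, Bhlhe40 ranked 11 by level in sham and 21 in BPVB PVs, and Bhlhe41 ranked 23 and 39. Among the 59 tested, Bhlhe41 ranked 1 and Bhlhe40 ranked 3 among the falls. Of the 57 tested that are not members, 14 were called higher and 8 lower by limma, beside the same shares of all genes, with a median log2 fold change of 0.07. Rora kept rank 9 by level of the 12 genes in its annotated receptor class.

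**Figure D4:**
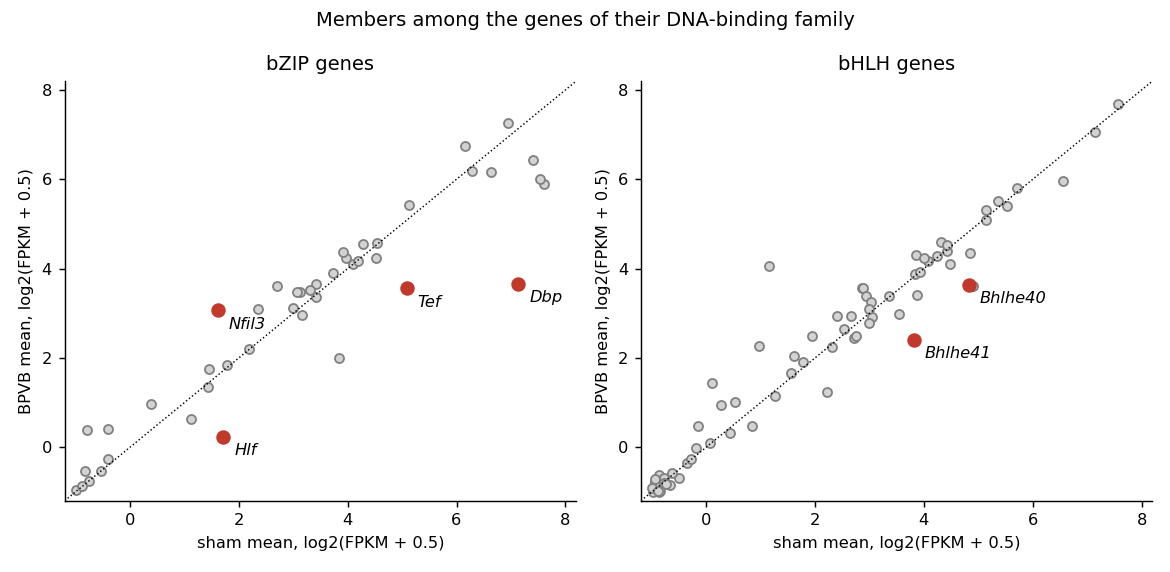
Mean log2(FPKM + 0.5) in BPVB PVs against that in sham PVs for 44 bZIP genes (left) and 72 bHLH genes (right), with members in red and the dotted line marking equal levels. Dbp, Tef and Hlf lie below the line and Nfil3 above it, and Bhlhe40 and Bhlhe41 lie below it.

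The core clock genes that act on the members were tested as a list that holds none of them. This list, like the lists below, was chosen with earlier results of these data known. Its calls are therefore a description and not independent support. Of 11 genes in the table, 10 were tested by limma, and 4 were higher and 5 lower in BPVB PVs, beside 17.2% and 14.3% of all genes. The median log2 fold change of the list was -0.34. Rorb was under the filter, with a mean of 0.0296 FPKM in sham PVs and listed at 0 in the BPVB libraries.

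On the side of the E-box activators, Arntl measured 15.7, 15.8 and 17.3 FPKM in BPVB and 1.55, 1.78 and 1.85 FPKM in sham PVs. It was 9.43-fold higher in BPVB, with a log2 fold change of 2.91 ± 0.088 (SE) and an adjusted p of 8.1e-08 by limma. Its partner Clock rose from 6.90 ± 0.27 to 11.4 ± 0.31 FPKM (adjusted p = 7.1e-05, limma), and Npas2, which can take the place of Clock, rose from 1.46 ± 0.18 to 4.32 ± 0.22 FPKM (adjusted p = 3.5e-05, limma; SD, n = 3 each). The RNA of the activators of the E-box was thus higher in the group in which Dbp, Tef, Ciart, Bhlhe40 and Bhlhe41 were lower. The ratio of Arntl to Dbp was 1.35 ± 0.074 in BPVB and 0.0123 ± 0.0011 in sham PVs.

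On the side of the E-box repressors, the period genes fell, with log2 fold changes of -0.62 ± 0.061 for Per1, -1.50 ± 0.12 for Per2 and -1.95 ± 0.094 for Per3 (SE). Their adjusted p-values by limma were 8.8e-05, 2.0e-05 and 1.2e-06. Cry1 rose by a log2 fold change of 0.65 ± 0.092 (SE; adjusted p = 0.00076, limma), and Cry2 was not called at -0.05 ± 0.058 (SE; adjusted p = 0.57, limma). The cryptochromes therefore did not move with the period genes.

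The repressors that act at the RORE fell by more than the 1.24-fold by which the activator Rora was lower. Nr1d1 measured 17.4, 18.8 and 16.7 FPKM in BPVB and 102, 98.5 and 98.2 FPKM in sham PVs, a log2 fold change of -2.46 ± 0.049 (SE; adjusted p = 4.8e-09, limma). Nr1d2 measured 13.7, 14.9 and 14.9 FPKM in BPVB and 54.2, 53.1 and 52.5 FPKM in sham PVs, a log2 fold change of -1.84 ± 0.047 (SE; adjusted p = 2.9e-08, limma). The groups did not overlap for either gene.

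**Figure D5:**
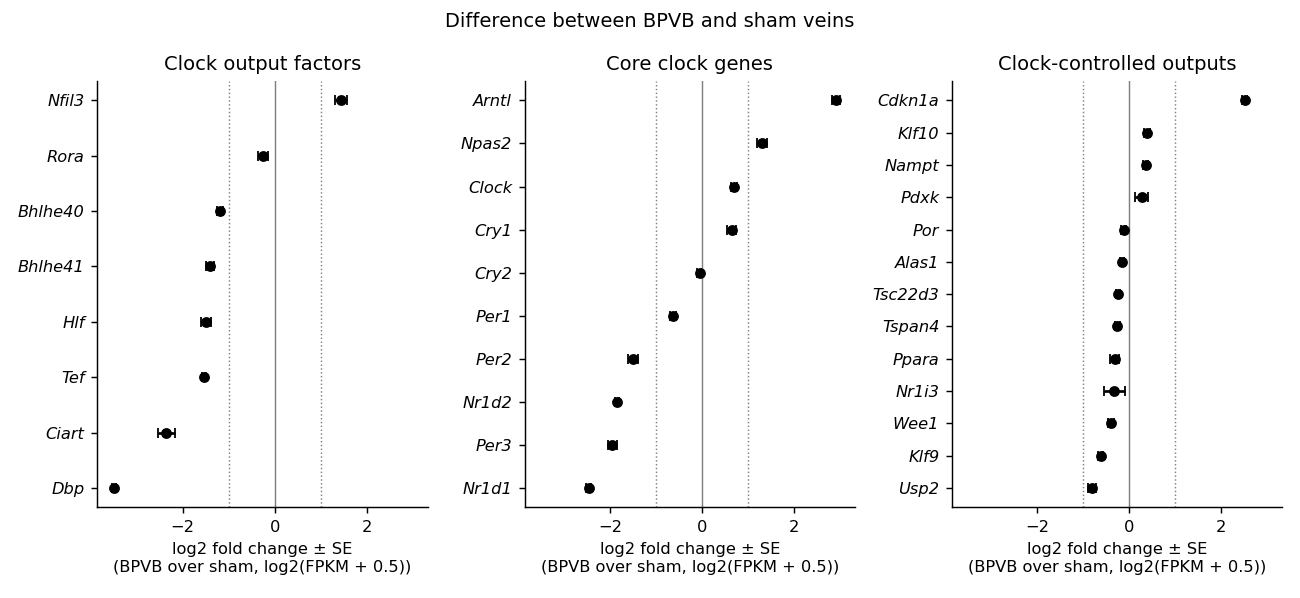
Log2 fold change of BPVB over sham with its SE on log2(FPKM + 0.5) for the 8 clock output factors, 10 core clock genes and 13 clock-controlled genes, with dotted lines at -1 and 1. Values run from -3.49 for Dbp to 1.44 for Nfil3 among the factors, and from -2.46 for Nr1d1 to 2.91 for Arntl among the core clock genes.

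Among 13 genes known to be controlled by the clock or by the PAR bZIP factors, 3 were called higher and 7 lower by limma, beside 17.2% and 14.3% of all genes, with a median log2 fold change of -0.24. Of these, 1 passed the fold threshold, Cdkn1a, the cyclin-dependent kinase inhibitor p21, which was higher at 30.7 ± 1.6 against 4.99 ± 0.11 FPKM (SD, n = 3; adjusted p = 2.1e-08, limma). Klf10, a Krüppel-like factor, and Nampt, the rate-limiting enzyme of NAD+ salvage, also rose, with log2 fold changes of 0.38 and 0.36 (adjusted p = 0.0021 and 0.0022, limma). The falls were smaller than those of the activators themselves.

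The largest falls in this list were -0.82 ± 0.086 for Usp2, a deubiquitinase, and -0.63 ± 0.045 for Klf9, a Krüppel-like factor that also answers glucocorticoids (SE; adjusted p = 0.00013 and 1.4e-05, limma). Wee1, the kinase that restrains entry into mitosis, fell by 0.40 on the log2 scale (adjusted p = 0.0026, limma), and Tspan4 and Tsc22d3 fell by 0.26 and 0.24 (adjusted p = 0.0031 and 0.0054, limma). The heme synthesis enzyme Alas1 at -0.15 and the lipid-sensing receptor Ppara at -0.32 were near the threshold (adjusted p = 0.030 and 0.033, limma). Alas1 lost its call with TPM (adjusted p = 0.067) and without BPVB replicate 1 or 2 or sham replicate 1 or 3 (adjusted p = 0.060 to 0.099), and Ppara without any 1 library other than sham replicate 1 (adjusted p = 0.068 to 0.089) and with a replicate block (adjusted p = 0.066). Por, the electron donor of the cytochromes P450, Pdxk and Nr1i3 were not called at -0.12, 0.27 and -0.33 (adjusted p = 0.12, 0.17 and 0.31, limma), although Pdxk was called higher without BPVB replicate 3 (adjusted p = 0.041).

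The genes whose profile over the 6 libraries was most like that of a member were sought among 12149 others with a mean of at least 1 FPKM, by Euclidean distance between centred log2(FPKM + 0.5) values. For Dbp they were Ifit1 at a distance of 0.50, Nefl at 0.60 and Fam111a at 0.96. Ifit1, listed at 0 in 2 BPVB libraries, and Nefl, at 0.208 to 0.499 FPKM in BPVB PVs, are low enough there that the pseudocount of 0.5 sets much of their likeness to Dbp. For Tef they were Junb at 0.12, Krt2 at 0.14 and Cited1 at 0.16, and for Hlf they were Ckmt2 at 0.17, Cited1 at 0.21 and Krt2 at 0.24. For Ciart they were Lgals5 at 0.37, Nr1d1 at 0.50 and Dcdc5 at 0.60. By ratio of means, Ckmt2, Cited1 and Krt2 were 2.61-, 2.92- and 3.22-fold lower in BPVB PVs, against 4.17-fold for Hlf. Lgals5, Nr1d1 and Dcdc5 were 5.06-, 5.64- and 6.45-fold lower, against 10.6-fold for Ciart. Among the members, Tef and Hlf were the closest pair at 0.18, and Dbp and Ciart, the members with the largest falls, were 1.53 apart. Hlf and Ciart averaged 0.666 and 0.355 FPKM in BPVB PVs, so the pseudocount also sets much of their distances to members and other genes. By ratio of means, Dbp and Ciart fell 11.7- and 10.6-fold, and Tef and Hlf fell 2.97- and 4.17-fold. The distance mostly reflects the size of the difference between the groups on the log2(FPKM + 0.5) scale, which for genes of low level is not their fold difference. Of the non-member genes named here, Nr1d1 belongs to the clock lists.

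Other gene groups also differed between the same libraries, in either direction. Of 10 immediate-early genes, which respond within minutes to stimulation, 8 were lower and 1 higher by limma, where 14.3% of all genes were lower and 17.2% higher, the shares to set beside each marker list as well. Their summed level was 319 to 333 FPKM in BPVB and 810 to 822 FPKM in sham PVs, with Fos at 59.2 ± 0.59 and 196 ± 2.6 FPKM (SD, n = 3). Of 8 alveolar epithelium markers, 7 were higher and 1 lower, with a sum of 635 to 688 FPKM in BPVB and 137 to 142 FPKM in sham PVs. Of 8 macrophage markers, 7 were higher, with a sum of 679 to 700 against 227 to 237 FPKM. Lyz2, which made up most of it, was at 592 ± 16 against 163 ± 3.8 FPKM (SD, n = 3), and the other 7 summed to 96.0 to 104 against 66.9 to 69.9 FPKM.

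Of 8 atrial cardiomyocyte markers, 2 were higher and 6 lower, of 7 endothelial markers 4 were lower, of 6 smooth muscle markers 1 was higher and 4 lower, and of 6 fibroblast markers 4 were higher and 2 lower (limma). Of 6 airway markers, 2 were tested. The club cell marker Scgb1a1 was higher, at 25.4 ± 2.2 against 4.07 ± 0.83 FPKM, and Tppp3 was lower, at 85.3 ± 4.8 against 135 ± 4.4 FPKM (SD, n = 3). The airway sum was 104 to 118 FPKM in BPVB and 136 to 143 FPKM in sham PVs, and Scgb3a2, Foxj1 and Krt5 were listed at 0 in the BPVB libraries and Cyp2f4 in the sham libraries. Of 7 lymphocyte markers tested, limma and limma-voom called 0, and 1 had an unadjusted p under 0.05, with a sum of 3.33 to 4.77 against 3.60 to 6.21 FPKM. No other marker was at 0 in a whole group among the macrophage, alveolar and cardiomyocyte lists. The part of these cell types and of the immediate-early genes in the values of the clock output factors was not tested.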

How the data were processed

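PV RNA from 3 BPVB and 3 sham rats was sequenced as paired 150-base reads. The authors deposited FPKM per gene with their annotation. For the processing by the authors, the labels list HISAT2 2.0.5, StringTie 1.3.3b, featureCounts 1.5.0-p3 and DESeq2 1.20.0 and a NEBNext kit, whereas the methods name fastp, HISAT, HTSeq-count and a VAHTS kit. The genome build, annotation and strand setting are not given in the sources used here, so reads of overlapping genes, such as the lncRNAs annotated at Hlf and Rora, could not be told apart. The annotation also held the authors' gene family and pathway terms, of which the family terms and the circadian rhythm pathway were used.

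Fragments per gene were recovered from whole-number steps of the deposited FPKM values for 100% of the 17833 genes. Testing was limited to genes whose FPKM averaged 0.1 or more, on log2(FPKM + 0.5) with limma 3.58.1 (eBayes with trend) in R 4.3.3, two-sided, with Benjamini-Hochberg adjustment over 15150 genes. Calls needed an adjusted p under 0.05, and in a stricter rule also an absolute log2 fold change over 1. The script was tested on simulated data. Alternatives were pseudocounts of 0.1 and 1, a minimum of 1 FPKM or none, TPM, quantile and median-of-ratios scaling, robust eBayes, limma-voom, a replicate block and leaving out each library.

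The members and all lists were chosen with earlier results of these data known. Named were the 8 members, genes of the lists, adjacent genes that could share reads, and the 3 genes nearest in profile to Dbp, Tef, Hlf and Ciart. Group and replicate came from the sample labels, which name pulmonary vein banding, whereas the series' design text has PAB. The deviations of same-numbered libraries from their group means correlated at 0.014 to 0.025, under the 0.1 set for pairing, so the replicate block was run as an alternative only.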

Additional observations from a re-analysis of the deposited data

How the results depend on the processing

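Over all alternatives 4 core clock genes were called higher and 5 lower. No fold change of the members, the core clock genes or the clock-controlled genes reversed, and those of other genes were not checked for reversal. The number of all genes past both thresholds depended on the scale. It was 340 higher and 156 lower, against 518 higher with TPM, 685 higher and 370 lower with limma-voom on recovered fragments, 611 higher and 290 lower with a pseudocount of 0.1, and 98 lower with a pseudocount of 1. Leaving out 1 library gave 342 to 357 higher and 153 to 175 lower. The replicate block gave 340 higher and 157 lower, and 6 rather than 7 clock-controlled genes lower, and changed no count of core clock genes. Each library deviated most like the library of its own number, but with correlations of 0.014 to 0.025, so the numbers were not taken to pair the rats. Depth limits Ciart and Hlf in BPVB PVs, at 16 to 51 and 115 to 118 fragments per library.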

Other observations

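The C/EBP factors are bZIP proteins whose sites resemble the D-box. Of 6 genes with a Cebp symbol tested by limma, including Cebpz, which is not a bZIP protein, 4 were higher in BPVB PVs, beside 17.2% of all genes, with a median log2 fold change of 0.57. Cebpa, known for its part in lung and fat cell maturation, rose from 2.09 ± 0.41 to 5.77 ± 0.32 FPKM (SD, n = 3; adjusted p = 0.00011, limma). Cebpb and Cebpd, which respond to inflammation, rose by log2 fold changes of 0.83 ± 0.080 and 0.81 ± 0.084 (SE), and Cebpg by 0.33 ± 0.066 (SE). Cebpz at -0.12 and Cebpe at 0.11 were not called (adjusted p = 0.14 and 0.82, limma). The macrophage and alveolar markers, which were also higher in BPVB PVs, are from cells that express C/EBP factors, and their part in these values was not tested.

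Of 14 enzymes and cofactors that modify or degrade clock proteins, 4 were higher by limma, beside 17.2% of all genes, with a median log2 fold change of 0.08 and none past the fold threshold. These were Csnk1d, a casein kinase that phosphorylates period proteins, at 0.24 ± 0.048 (SE), Btrc, which marks them for degradation, at 0.46 ± 0.10 (SE), Csnk2a1 at 0.27 ± 0.034 (SE) and the REV-ERB corepressor Ncor1 at 0.18 ± 0.056 (SE). The genes that the authors' annotation places in the circadian rhythm pathway, chosen after the file was read, came to 25 tested without the members, of which 7 were higher and 7 lower, beside 17.2% and 14.3% of all genes (median log2 fold change -0.04).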
